A study of Mus musculus with 4 samples.

Results

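The transcripts of 10 G protein-coupled receptors of the pancreatic beta cell were followed in bulk RNA-sequencing libraries of sorted mouse beta cells. The receptors were chosen by gene symbol: Glp1r, Gipr, Gcgr, Ffar1, Gpr119, Sstr3, Adra2a, Galr1, Chrm3 and Adcyap1r1. All 10 symbols were found among the 31017 gene names of the count tables. The cells came from wild type C57BL/6J male mice of 10 weeks. Their islets had been cultured overnight, dissociated with trypsin and sorted by flow cytometry on CD63, a tetraspanin of endosomes and secretory vesicles. There were 2 libraries of CD63 high cells and 2 of CD63 low cells, and both groups shared strain, sex, age and genotype. Nothing in the labels says whether replicates came from different animals or sorts. The p-values therefore measure only the spread between these libraries, which may be technical.

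Receptors of this kind set how much insulin a beta cell releases at a given glucose level. Those that couple to the G protein Gs raise cyclic AMP and enhance secretion. This group holds the receptors of the incretins, gut hormones released after a meal. Receptors coupled to Gq act through phospholipase C and calcium and also enhance secretion. Those coupled to Gi lower cyclic AMP and hold secretion back, as adrenaline, somatostatin and galanin do. GLP1R, GIPR, GCGR and PAC1, the protein of Adcyap1r1, belong to the secretin family (class B), and the other 6 receptors are of the rhodopsin family (class A).

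The total counts ranged from 29249270 to 35003307 per library, and levels are given as counts per 1000000 (CPM). Insulin transcripts (Ins1 and Ins2) took 48.7% to 56.4% of all counts, and none of the 11 beta cell markers examined was at 0, though 3 of them fell in CD63 high cells. Cd63 itself stood at 1973 and 2076 CPM in the CD63 high pair and at 1186 and 1120 CPM in the CD63 low pair. Several lists of markers of other cell types summed to higher levels in the CD63 high libraries. The summed level of 11 alpha cell markers was 6014 and 6336 CPM in the CD63 high pair against 947 and 1037 CPM in the CD63 low pair. For 7 delta cell markers it was 1003 and 1080 against 275 and 316 CPM, for 5 gamma cell markers 4469 and 4758 against 634 and 441 CPM, and for 13 macrophage markers 158 and 525 against 23.7 and 42.9 CPM. Acinar markers (14 genes) stood at 1042 and 1465 against 24.6 and 376 CPM and duct markers (10 genes) at 2841 and 1477 against 638 and 688 CPM. Endothelial, lymphocyte and stellate cell lists summed to under 7 CPM in every library, with Cdh5, Cd3e and Pdgfra at 0, and the Schwann cell and neuron list to 81.1 to 99.4 CPM. Of the tested markers, 3 of 10 for alpha, 4 of 5 for delta, 4 of 4 for gamma, 6 of 13 for acinar, 1 of 8 for duct cells, 11 of 13 for macrophages and 1 of 4 for Schwann cells and neurons rose. The other tested delta cell marker, Frzb, fell, and no other marker in these lists did. Spp1 is in both the gamma and the duct list, so it enters both sums and is the 1 duct marker that rose. The part of these other cells in the receptor differences was not tested. In bulk libraries, fewer cells of a type and less RNA per cell cannot be told apart.

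Of the 9 receptors tested, Glp1r was the 1 called by edgeR, and the promoters of Glp1r and of its class B relative Gcgr are shown to set these genes side by side. Both windows run from 250 bases before to 50 bases after a RefSeq start site on the plus strand of GRCm38.p6, at chr17:30901617-30901916 and chr11:120530477-120530776. Capitals mark GC boxes, GGGCGG on either strand, a motif bound by Sp1 family factors.
Glp1r: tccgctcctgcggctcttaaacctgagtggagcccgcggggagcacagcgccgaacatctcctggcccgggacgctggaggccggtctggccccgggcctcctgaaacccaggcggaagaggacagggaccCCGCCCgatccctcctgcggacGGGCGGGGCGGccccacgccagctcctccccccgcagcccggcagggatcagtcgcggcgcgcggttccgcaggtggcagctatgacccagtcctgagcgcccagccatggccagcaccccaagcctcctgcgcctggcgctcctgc
Gcgr: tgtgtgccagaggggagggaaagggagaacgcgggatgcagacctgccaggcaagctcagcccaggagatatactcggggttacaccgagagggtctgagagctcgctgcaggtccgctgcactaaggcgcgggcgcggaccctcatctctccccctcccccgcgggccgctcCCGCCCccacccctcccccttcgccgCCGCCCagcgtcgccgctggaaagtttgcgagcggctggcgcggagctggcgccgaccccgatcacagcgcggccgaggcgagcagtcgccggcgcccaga

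For Glp1r the start site, 30901867, is also the first exon base in the count tables. For Gcgr the start site used, 120530727, lies 28 bases downstream of the first counted exon base. The RefSeq span of Gcgr starts further upstream, at 120529185, so the Gcgr window is not at the first base of that span. The Glp1r window was 73.7% G and C and held 3 GC boxes, 2 of which overlap each other. In the Gcgr window, 71.7% G and C, there were 2. Neither window held a full cyclic AMP response element (TGACGTCA), and of E-boxes (CANNTG) the Glp1r window had 1, which overlapped no GC box, and the Gcgr window 0. A GC box was present in 35.7% of the 32851 RefSeq promoter windows of the same length, a cyclic AMP response element in 1.79% and an E-box in 72.3%. RefSeq windows were matched for 8 of the 10 receptors by symbol, all but Gipr and Galr1. A GC box lay in 4 of these (Glp1r, Gcgr, Adra2a and Adcyap1r1), a full cyclic AMP response element in 0 and an E-box in 5. These matches describe letters, not binding.

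The receptors differed widely in level. Levels between genes are given as RPKM, TMM-scaled CPM divided by exon length in kilobases. Glp1r had the highest RPKM of the 10 in every library, 29.3 and 23.1 RPKM in CD63 high and 56.6 and 78.3 RPKM in CD63 low replicates 1 and 2. In CD63 high cells Ffar1 (14.6 ± 0.265 RPKM, mean ± SD, n = 2), Sstr3 (13.4 ± 2.08) and Gcgr (12.8 ± 1.08) came next, with overlapping ranges between neighbours in that order. Adra2a (9.44 ± 0.317 RPKM) and Gipr (7.31 ± 0.370) followed, then Gpr119 (5.32 ± 2.33) and Galr1 (4.06 ± 0.547), whose ranges overlapped. In CD63 low cells Gcgr (22.1 ± 3.34 RPKM) was second, and Ffar1 (16.8 ± 3.24), Sstr3 (16.1 ± 4.09), Gipr (13.2 ± 1.15) and Adra2a (12.8 ± 2.48) overlapped from neighbour to neighbour. Gpr119 (9.11 ± 1.27 RPKM) and Galr1 (7.19 ± 0.376) stood below them. Chrm3 was at 0.867 ± 0.0719 and 1.26 ± 0.0432 RPKM in CD63 high and CD63 low cells.

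The exons counted differ in kind between these genes, which touches every level per length. For Glp1r the tables counted 1480 bases of exon, of which 91 lie outside the coding exons of GENCODE M21, whereas M21 itself annotates 5811 bases of exon for this gene. For Ffar1, whose coding part is 900 bases, 4175 bases were counted, and for Sstr3 4320 bases with 1284 coding. How far the order depends on the annotated length was not tested. No counted exon of the 10 receptors overlapped an exon of another gene name.

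The comparison of CD63 high with CD63 low cells asked how receptor transcripts differ with surface CD63. Glp1r fell 2.57-fold in CD63 high cells and was the 1 receptor past the threshold. Gipr, Galr1, Gcgr and Gpr119 had 1.71 to 1.80 times lower fitted levels in CD63 high cells without passing it. Chrm3 and Adra2a had smaller differences in the same direction, and Ffar1 and Sstr3 had overlapping groups. Adcyap1r1 was at or near 0 counts. Over all 13241 tested genes, edgeR's quasi-likelihood test called 0.287% lower and 2.5% higher in CD63 high cells at a Benjamini-Hochberg adjusted p under 0.05, and of the 9 receptors tested 1 fell and 0 rose.

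**Figure D1:**
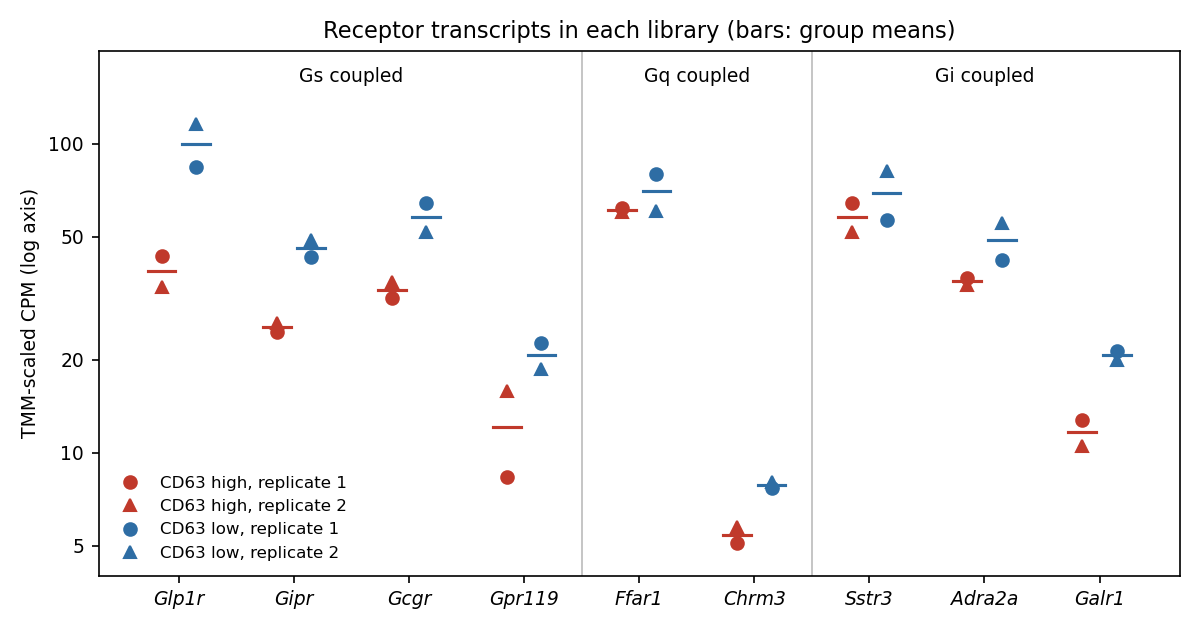
TMM-scaled CPM (log axis) of 9 receptors in each of the 4 libraries, grouped by the G protein they couple to; points are libraries and short bars are group means. Both CD63 high points lie below both CD63 low points for Glp1r, Gipr, Gcgr, Gpr119, Chrm3, Adra2a and Galr1, and the groups overlap for Ffar1 and Sstr3.

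Glp1r (chromosome 17, 30901867 to 30936510, mm10, plus strand, 13 exon blocks) encodes the receptor of glucagon-like peptide 1, the target of the incretin drugs used in diabetes. It had 1358 and 949 counts in CD63 high and 2544 and 4517 counts in CD63 low replicates 1 and 2, or 43.3 and 34.3 against 83.8 and 116 TMM-scaled CPM. Both CD63 high libraries were below both CD63 low libraries. The log2 fold change, CD63 high over CD63 low, was -1.36 (SE 0.23, 95% interval -1.87 to -0.85), with an edgeR adjusted p of 0.0108. Leaving out each library in turn gave -1.58 to -1.09, and the call held in each case. With library size as the only scaling, a setting in which 0.00755% of tested genes were called lower, the log2 fold change was -1.42 and the call ended (edgeR adjusted p 0.104, against 2.71e-07 to 0.0264 in the other 11 alternatives). By log2 fold change it was the 13th of the 38 genes that fell.

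Gipr (chromosome 7, 19156061 to 19166127, minus strand) encodes the receptor of the other incretin, glucose-dependent insulinotropic polypeptide. Its levels were 24.5 and 26.4 CPM in the CD63 high pair and 43.1 and 48.7 CPM in the CD63 low pair. The groups lay well apart and replicates differed by at most 1.13-fold. The log2 fold change was -0.85 (SE 0.21, 95% interval -1.31 to -0.39), and the edgeR adjusted p of 0.0592 missed the threshold. DESeq2, which called 1.15% of tested genes lower, gave an adjusted p of 0.00957. Gipr was also called without CD63 low replicate 1 (1.84% of tested genes called lower, edgeR adjusted p 0.0246), with no filter on low counts (1.36%, 0.0132), and with library size without Ins1 and Ins2 as the only scaling (0.423%, 0.0452). Over the 12 alternatives its adjusted p ran from 0.00957 to 0.275.

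Gcgr (chromosome 11, 120530699 to 120538986, plus strand) encodes the glucagon receptor, through which alpha cells act on neighbouring beta cells. It stood at 31.6 and 35.7 CPM in the CD63 high pair and 64.1 and 51.7 CPM in the CD63 low pair, again with no overlap. Its log2 fold change was -0.78 (SE 0.21, 95% interval -1.25 to -0.32; edgeR adjusted p 0.0835). The call was made by DESeq2 (adjusted p 0.0216), with no filter on low counts (0.0208) and without CD63 low replicate 2 (0.0303, with 0.4% of tested genes called lower), and its adjusted p otherwise reached up to 0.377. Gcg, which encodes glucagon and glucagon-like peptide 1, the ligands of these receptors, was higher in the same CD63 high libraries (4985 and 5643 against 179 and 287 CPM).

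Gpr119 (chromosome X, 48667979 to 48674478, minus strand) encodes a Gs-coupled receptor of oleoylethanolamide and related lipids. Its values were 8.33 and 15.8 CPM in the CD63 high pair and 22.7 and 18.6 CPM in the CD63 low pair. The CD63 high replicates differed 1.90-fold, the widest gap within a group among the 9 tested receptors. The log2 fold change was -0.78 (SE 0.31, 95% interval -1.47 to -0.08), with an edgeR adjusted p of 0.273. Without CD63 high replicate 2 it was -1.31 and was called (edgeR adjusted p 0.0394, with 0.52% of tested genes called lower), and without CD63 high replicate 1 it was -0.38 (0.789). The value for Gpr119 thus rested on which CD63 high library was used.

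Adcyap1r1 (chromosome 6, 55451978 to 55501451, plus strand) encodes PAC1, the receptor of the neuropeptide PACAP. It had 6 counts in CD63 high replicate 2 and 0 in each of the other 3 libraries. It was removed by the filter on low counts and not tested. Those 6 counts correspond to 0.205 counts per 1000000 (95% Wilson interval 0.0940 to 0.448, counting error only), and a count of 0 allows up to 0.0857 to 0.0986 per 1000000 (3 counts) in the other libraries. Vipr1, which encodes a receptor shared by PACAP and the vasoactive intestinal peptide, was at 27.5 to 45.0 CPM in the 4 libraries.

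Neither Gq-coupled receptor passed the threshold. Ffar1 (chromosome 7, 30857390 to 30861564, minus strand, 1 exon) encodes the receptor of long-chain fatty acids also called GPR40. It stood at 61.9 and 60.3 CPM in the CD63 high pair and 79.7 and 60.6 CPM in the CD63 low pair, so that 1 CD63 low library was level with the CD63 high pair. The log2 fold change was -0.20 (SE 0.21, 95% interval -0.66 to 0.26; edgeR adjusted p 0.739), and it was 0.01 without CD63 low replicate 1. Chrm3 (chromosome 13, 9875486 to 10360847, minus strand) encodes the muscarinic receptor through which acetylcholine acts on beta cells. It had the fewest counts of the tested receptors, 160 and 159 in the CD63 high pair and 233 and 314 in the CD63 low pair, or 5.10 and 5.74 against 7.68 and 8.06 CPM. The groups did not overlap, but the log2 fold change of -0.54 (SE 0.31, 95% interval -1.23 to 0.15) did not pass (edgeR adjusted p 0.477).

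Among the Gi-coupled receptors the size of the difference varied. Galr1 (chromosome 18, 82392496 to 82406777, minus strand), which encodes a galanin receptor, stood at 12.8 and 10.5 CPM in the CD63 high pair and 21.4 and 19.9 CPM in the CD63 low pair. The groups were apart, with a log2 fold change of -0.82 (SE 0.24, 95% interval -1.37 to -0.28) and an edgeR adjusted p of 0.118, and no alternative called it (0.0593 to 0.496). Adra2a (chromosome 19, 54045182 to 54048982, plus strand, 1 exon) encodes the adrenergic receptor by which adrenaline restrains insulin release. It was at 36.7 and 35.0 CPM in the CD63 high pair and 42.1 and 55.4 CPM in the CD63 low pair, close together except for the highest library. Its log2 fold change was -0.44 (SE 0.22, 95% interval -0.92 to 0.03; edgeR adjusted p 0.381). Sstr3 (chromosome 15, 78537008 to 78544685, minus strand) encodes a somatostatin receptor that sits on the primary cilium. It was at 64.4 and 51.7 CPM in the CD63 high pair and 56.8 and 81.8 CPM in the CD63 low pair, which overlap. The log2 fold change was -0.26 (SE 0.23, 95% interval -0.77 to 0.26; edgeR adjusted p 0.686), and without CD63 low replicate 2 it was 0.05. Sst, the somatostatin gene, was at 401 and 818 CPM in the CD63 high pair against 59.5 and 38.0 CPM in the CD63 low pair.

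**Figure D2:**
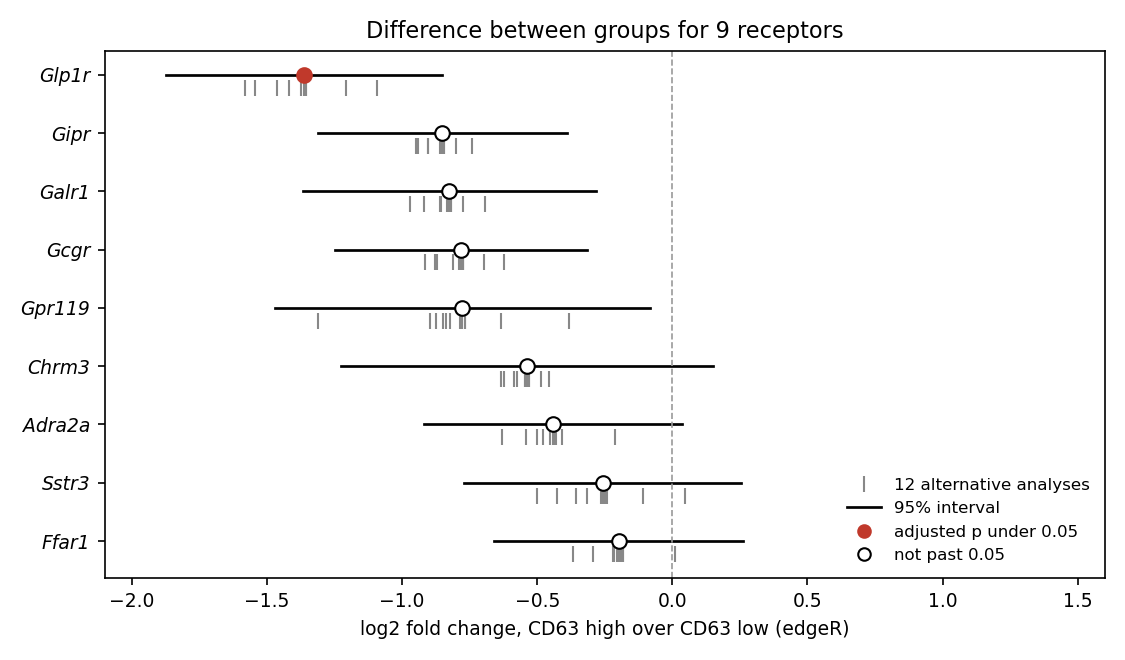
Log2 fold change of 9 receptors, CD63 high over CD63 low, by edgeR, with 95% intervals as horizontal lines and the 12 alternative analyses as grey ticks. The filled point, Glp1r, is the 1 receptor with an adjusted p under 0.05, and ticks cross 0 for Ffar1 and Sstr3.

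The 9 tested receptors had at least 159 counts in every library, so none passed the filter through 1 group alone. All 9 log2 fold changes lay below 0, where 51.4% of all tested genes did, and their median was -0.78 against -0.01 over all tested genes. In 7 of the 9, both CD63 high libraries were below both CD63 low libraries, and 22.2% of all tested genes had that pattern. The 11 beta cell markers leaned the same way. Of these, 8 lay below 0, the median was -0.55, and 7 had both CD63 high libraries below both CD63 low libraries. The receptor figures describe genes read from the same 4 libraries, which are not independent of each other. The receptors were also chosen with earlier results of these data known. A log2 fold change at or below the median of the receptors was found in 5.96% of tested genes, and one at or below that of Glp1r in 1.40%.

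**Figure D3:**
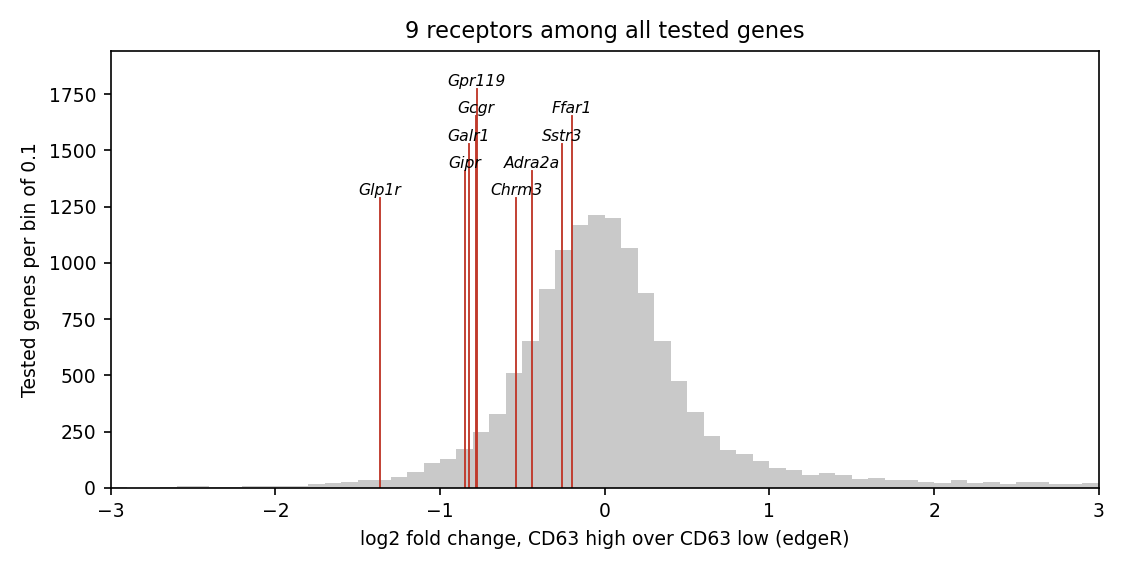
Number of tested genes per bin of 0.1 in log2 fold change, CD63 high over CD63 low, with the 9 receptors as vertical lines. The receptors lie between -1.36 and -0.20, and 430 tested genes fall outside the plotted range of -3 to 3.

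Ratios within a library do not depend on the scaling between libraries. They do depend on the exon lengths used, for Glp1r 1480 bases where GENCODE M21 annotates 5811. How far the shares and ratios below change with that length was not tested. Of the summed RPKM of the 10 receptors, Glp1r took 30.3% and 25.3% in the CD63 high pair and 36.4% and 44.4% in the CD63 low pair. The Gs-coupled receptors together took 53.8% and 56.1% against 66.5% and 68.1%, and the Gi-coupled receptors 30.0% and 27.1% against 20.4% and 22.9%. The ratio of Gs-coupled to Gi-coupled receptors was thus 1.79 and 2.07 in the CD63 high pair and 3.27 and 2.97 in the CD63 low pair, with no overlap. Without Glp1r in the Gs-coupled sum, a choice made after the data were seen, the ratio was 0.786 and 1.13 against 1.48 and 1.04, and the groups overlapped. The share of the other Gs-coupled receptors, 23.6% and 30.8% against 30.1% and 23.8%, overlapped as well. Glp1r stood at 4.15 and 3.06 times the RPKM of Gipr in the CD63 high pair and at 4.58 and 5.60 times in the CD63 low pair. Against Sstr3 it stood at 1.96 and 1.94 times and at 4.30 and 4.13 times. The ratio of Gcgr to Gipr, 1.71 and 1.80 against 1.98 and 1.41, overlapped between the groups. With 2 libraries a group, the smallest two-sided p of an exact permutation test is 0.333, so none of these ratios could pass a threshold of 0.05.

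**Figure D4:**
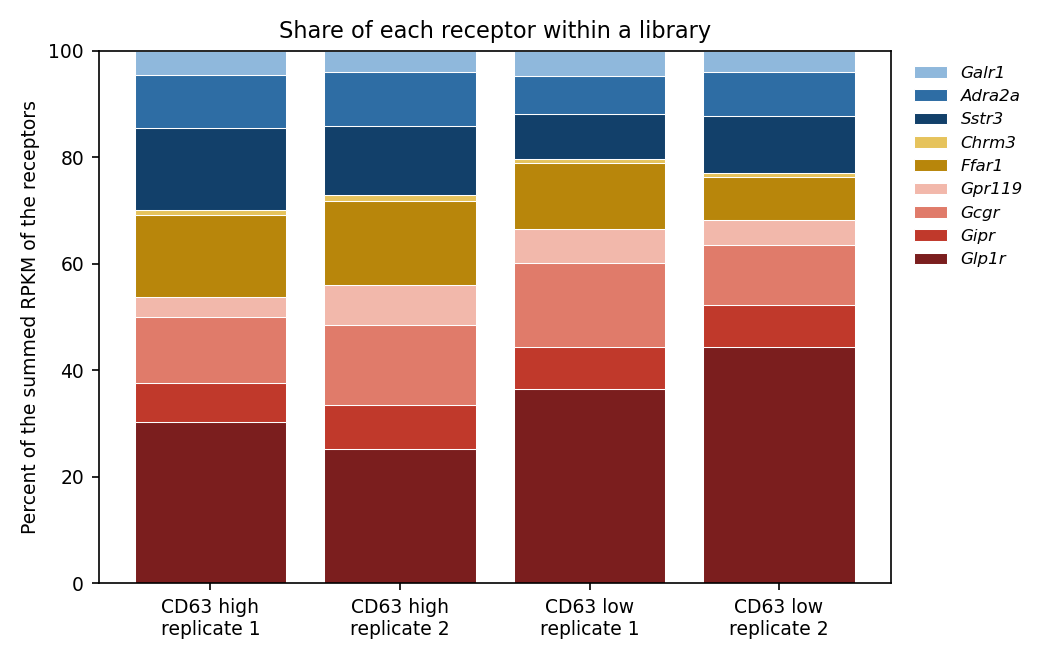
Percent of the summed RPKM of the receptors taken by each receptor in each library (stacked bars; Adcyap1r1, under 0.04%, is not drawn). The Gs-coupled receptors, in reds, take 53.8% and 56.1% of the CD63 high bars and 66.5% and 68.1% of the CD63 low bars.

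Most other receptors of the same families were too low to test. Of 27 relatives, 11 had no count in any library, among them Glp2r, Sctr, Ghrhr and Sstr4, and 8 were tested, of which 1 rose (Sstr2) and 0 fell. The highest RPKM among the relatives belonged to Ffar2, a receptor of short-chain fatty acids (56.8 and 47.5 CPM in the CD63 high pair, 41.5 and 29.8 CPM in the CD63 low pair; log2 fold change 0.55, edgeR adjusted p 0.289), then Galr3 (-0.39, 0.570) and Vipr1 (-0.27, 0.682). Sstr2, the main somatostatin receptor of mouse alpha cells and one of the alpha cell markers above, had 38 and 15 counts in CD63 high and 0 in CD63 low libraries. It passed the filter on low counts through the CD63 high libraries alone, so it could be called only as higher. Its pooled CD63 high level was 20.7 times a floor of 3 counts over both CD63 low libraries. This figure leaves out the spread between libraries and is not a lower limit. The log2 fold change was 7.82 (95% interval 4.01 to 11.6, edgeR adjusted p 0.0438). The call ended in turn without CD63 high replicate 1 (log2 fold change 7.14), CD63 low replicate 1 (7.85) or CD63 low replicate 2 (7.72). It also ended with a robust dispersion fit (0.0517) and with library size as the only scaling, and the adjusted p of Sstr2 ran from 0.00304 to 0.214 over the 12 alternatives. Of 45 further islet receptors 22 were tested, and 1 rose, Hcar2, a receptor of hydroxybutyrate and niacin (23.3 and 11.9 against 4.12 and 5.29 CPM; log2 fold change 1.90, SE 0.35, edgeR adjusted p 0.0177, and 0.128 with library size as the only scaling), while 0 fell. Their median log2 fold change was -0.03, and at an unadjusted p under 0.05 there were 6 lower and 3 higher, where 5.96% of all tested genes were lower and 8.95% higher. DESeq2 called 2 of them lower and 1 higher, where of all 13241 tested genes it called 1.15% lower and 686 in either direction. Adgrg1, an adhesion receptor, had the highest RPKM of that list, with 114 and 115 against 163 and 202 CPM (-0.67, edgeR adjusted p 0.117). Next were Gpr27 (-0.57, 0.216), an orphan receptor, and Gabbr2 (0.27, 0.622), a subunit of the GABA-B receptor.

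Calls downstream of the receptors are set beside those over all tested genes, of which edgeR called 2.5% higher and 0.287% lower. Of 24 tested G protein subunits 1 rose, Gna14, a Gq family alpha subunit (7.66 and 6.07 against 1.02 and 0.744 CPM; log2 fold change 2.96, SE 0.43, edgeR adjusted p 0.00593), and 0 fell. Gnai2, Gng12 and Gng4, the subunit genes with the highest RPKM, had log2 fold changes of -0.18, -0.08 and 0.08 and did not pass. None of 15 tested effectors (adenylyl cyclases, phospholipases C, protein kinase A subunits, Epac exchange factors and channels) and none of 19 tested receptor kinases, arrestins and partners was called by edgeR, with medians of -0.27 and -0.13. At an unadjusted edgeR p under 0.05, 1 effector was higher and 4 were lower, and 2 partners were higher and 2 lower. By that measure 8.95% of all tested genes were higher and 5.96% lower. DESeq2 called 1 effector lower and 0 partners, where it called 1.15% of all tested genes lower. Prkar1a, a regulatory subunit of protein kinase A, had the highest RPKM of the effectors (log2 fold change 0.51, edgeR adjusted p 0.230), ahead of Prkaca (-0.37) and Prkar1b (-0.65). Gpsm1, Vps35 and Grk2 led the partners by RPKM, at -0.47, -0.31 and 0.01. Among 7 tested ligand and processing genes Gcg and Sst rose and 0 fell, and Pcsk2, a prohormone convertase, did not pass (-0.35, edgeR adjusted p 0.439). No count of Gip was found in any library.

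Of 13 tested genes tied to the cyclic AMP response, 3 rose and 0 fell, where 2.5% of all tested genes rose and 0.287% fell. The 13 had a median log2 fold change of 1.07, against -0.01 over all tested genes. Crem, a transcription factor gene with a cyclic AMP-inducible repressor form, stood at 93.0 and 92.6 CPM in the CD63 high pair and 43.7 and 44.9 CPM in the CD63 low pair (log2 fold change 1.07, SE 0.19, edgeR adjusted p 0.0148). Fos rose from 7.64 and 8.98 to 59.1 and 26.8 CPM (2.37, SE 0.35, 0.00593), and Nr4a1 from 1.75 and 3.52 to 15.9 and 7.47 CPM (2.14, SE 0.45, 0.0322). Both also respond to stress signals. With CD63 high replicate 1 left out, Nr4a1 lost the call (0.0691) and Fos was at 1.68. Nr4a1 also missed the threshold with limma-voom (0.0518) and with library size without Ins1 and Ins2 (0.0514), and all 3 calls ended when libraries were scaled by size alone (0.104 for Crem, 0.0798 for Fos and 0.179 for Nr4a1). DESeq2 called 6 of the 13 higher. Of all 13241 tested genes it called 686 in either direction, 152 of them lower. Dusp1, a phosphatase gene, had 34.7 and 34.3 against 19.5 and 11.1 CPM and missed the threshold (edgeR adjusted p 0.0550).

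By a rule of likeness, the genes whose centred log2 CPM over the 4 libraries lay closest to that of Glp1r were Hspa12a (Euclidean distance 0.15), Cabp7 (0.20) and Scd2 (0.25), among 7668 genes whose average log2 CPM reached 3. Their log2 fold changes were -1.48, -1.38 and -1.26, all called, which the choice by likeness over the same 4 libraries favours in advance. Hspa12a missed the threshold when CD63 high replicate 2 (log2 fold change -1.36) or CD63 low replicate 2 (-1.27) was left out. All 3 calls ended when libraries were scaled by size alone, with the edgeR adjusted p of Cabp7 at 0.0764 and that of Scd2 at 0.141. Of the other receptors Gipr was nearest, at a distance of 0.63 and rank 119, followed by Galr1 at 0.67 and rank 138. The 4 libraries are all the points behind each distance.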

How the data were processed

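The authors deposited raw counts of fragments per gene name, 1 table per library, made with featureCounts 1.6.2 per the file headers, with paired-end counting on gene models from the mm10 3.0.0 release of Cell Ranger. No strand option and no option for multiply aligned reads appear in these headers, so by that tool's default such reads are not counted. STAR 2.6.0c is named per the submitters' processing notes, and libraries were made from polyA RNA by a low-input amplification kit per the labels' protocols, with no molecular identifiers named, so Wilson intervals and floors of 3 counts cover counting error only. The exon length per gene in the deposited tables (another column) was used for RPKM.

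Genes were filtered with filterByExpr (minimum count 10, minimum total 15), leaving 13241, scaled by TMM and tested with edgeR 4.0.16 (glmQLFit, glmQLFTest) in R 4.3.3, group as the only term. Calls use a Benjamini-Hochberg adjusted p under 0.05 over all tested genes. Standard errors were taken as the size of the log2 fold change divided by the root of its F statistic, and 95% intervals of fold changes, which include the spread between libraries, use the test's t quantile. The fit was tested on simulated data. CPM is TMM-scaled except marker sums and Adcyap1r1, which use total counts. DESeq2 1.42.0, limma-voom (limma 3.58.1), other scalings, no filter, a replicate block and leaving out each library were alternatives. Within-group chi-square per degree of freedom was 37.3 and 73.7, far above sampling noise. Named genes were the receptors, Cd63, insulin, glucagon and somatostatin genes, and from each list the called genes and the 3 of highest RPKM, plus the 3 genes closest to Glp1r in pattern, with other names chosen after their values were seen. The receptors and lists were chosen with earlier results of these data known. Promoter windows are from RefSeq (GRCm38.p6), coordinates otherwise from the deposited tables (mm10, the same assembly).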

Additional observations from a re-analysis of the deposited data

How the results depend on the processing

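Over the 12 other settings, 97 receptor log2 fold changes stayed on the same side of 0 and of the threshold, 8 gained a call, 1 lost it and 2 changed sign. Leaving out 1 library gave -0.37 (without CD63 low replicate 2) to 0.0082 (without CD63 low replicate 1) for Ffar1 and -0.50 (without CD63 low replicate 1) to 0.0466 (without CD63 low replicate 2) for Sstr3. Glp1r lost its call only with library size as the scaling. The cause was not tested. Receptors called numbered 1 in the main analysis, 0 with library size as the only scaling, 2 with library size without Ins1 and Ins2, 3 with no filter, 3 with DESeq2, and 1 to 2 when 1 library was left out. All genes called numbered 369, against 67 with library size as the only scaling, 940 with no filter, 686 with DESeq2 and 450 to 769 when 1 library was left out, the most without CD63 low replicate 1. Related genes called numbered 8, against 3, 22, 14 and 11 to 16 in the same settings. Where a library was left out, a group of 1 was assumed to vary like the other group.

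Whether same-numbered libraries share an animal or a sort is not given by the labels. Deviations from the group means correlated at -0.10 between same-numbered libraries over 13241 genes. With 2 libraries a group, this cannot decide how the libraries were paired, if at all. With the replicate block 616 of all 13241 tested genes, 1 receptor and 11 related genes were called. With the numbers crossed, an alternative chosen after seeing the data, 942, 5 and 21 were called. These counts take both directions together. The share of all tested genes called lower is not given for either setting, so the 5 receptors cannot be set against it. Chrm3, with 159 to 314 counts, had an SE of 0.31, and Glp1r, with 949 to 4517 counts, had one of 0.23.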

Other observations

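Cnr1 and Casr, named after their values were seen, had the lowest log2 fold changes among the 22 islet receptors tested outside the receptor families above. Cnr1, a cannabinoid receptor gene, had 47 and 42 counts in the CD63 high pair and 111 and 188 in the CD63 low pair (log2 fold change -1.49, edgeR adjusted p 0.124). Casr, the calcium-sensing receptor gene, was at 4.37 and 3.07 against 5.77 and 11.5 CPM (-1.21, 0.166). Gprc5c, an orphan receptor gene also named after its values were seen, was at 16.4 and 10.5 against 28.5 and 24.8 CPM (-0.98, 0.0864). None of these 3 passed. Dpp4, whose product cleaves glucagon-like peptide 1, was at 36.6 and 35.8 against 44.9 and 75.7 CPM (-0.74, edgeR adjusted p 0.183).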
